A study of Mus musculus with 7 samples.

Results

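Hematopoietic stem and progenitor genes were examined in mouse femurs after a traumatic brain injury (TBI). They are 31 genes that mark or regulate the rare marrow cells from which all blood cells descend, chosen by name. All 31 were found by gene symbol among the 49671 genes of the deposited count table, and 30 of them passed a filter on low counts. Femurs came from wild-type mice, either uninjured controls (3 libraries) or mice given a controlled cortical impact, a piston blow to the exposed brain (4 libraries, taken 3 days after injury). Each femur was crushed whole, so a library mixes RNA of marrow, bone, cartilage, vessels and attached tissue, and stem cells are a small part of it. The labels number the replicates without tying them to separate mice, and p-values here measure only the spread between these samples, which may be technical. The treatment label of the controls does not say whether they had sham surgery.

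Hematopoietic stem cells sit in the marrow, mostly quiescent, next to vessels and stromal cells that supply them with stem cell factor and CXCL12. A small set of transcription factors keeps them multipotent, while their progeny lose stem cell surface molecules, gain others such as CD48 and FLT3, and divide fast. After injury or infection the marrow can shift its output towards myeloid cells. Many of these genes are not private to stem cells: Cd34, Procr, Ly6a, Myct1, Fgd5, Mecom, Gata2, Lyl1 and Meis1 are also expressed by endothelial cells, and several others by mature leukocytes. In bulk RNA, fewer cells of a type and less RNA per cell cannot be told apart.

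Libraries held 15461528 to 21783534 counts and 22360 to 23424 detected genes. Levels are given in CPM, the usual depth-scaled count, with library sizes scaled by TMM, so that 1 count was worth 0.0426 to 0.0630 CPM. A count of 0 allows up to 0.128 to 0.189 CPM (3 counts), a limit that covers counting error only. The libraries differed in tissue makeup. The 9 genes of a skeletal muscle list, all detected, summed to 1.65%, 3.21% and 5.73% of scaled counts in controls 1 to 3, and the TBI libraries held 2.00%, 3.14%, 8.49% and 10.6%. The 11 late neutrophil genes, all detected, summed to between 3436 and 5122 CPM in controls and between 2372 (TBI 3) and 12430 CPM (TBI 1) after injury. The 9 endothelial genes, all detected, summed to between 390.8 and 522.3 CPM in controls and between 399.5 and 633.5 CPM after injury.

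The femurs of injured and control mice did not differ detectably in the stem and progenitor genes. Of the 30 tested, 0 passed an adjusted p of 0.05 in edgeR's quasi-likelihood test, where 0% of all 17144 genes passed (DESeq2 called 102 of all genes and 0 of the 29 stem and progenitor genes to which it gave an adjusted p, Hmga2 having none). At an unadjusted p under 0.05 there was 1, Prom1, against 7.34% of all genes (2.37% higher, 4.97% lower). For 0 of the 30 did the TBI libraries lie wholly above or below the controls, against 8.04% of all genes (2.66% above, 5.38% below). Estimates were higher after TBI for 22 and lower for 8, and the median of their log2 fold changes was 0.11, between quartiles of −0.01 and 0.36. Over all genes the median was 0.03, between quartiles of −0.15 and 0.21, and 54.4% were higher. Leaving out 1 library moved the median of the 30 to 0.21 (control 1), 0.18 (TBI 3) or 0.05 (TBI 1). Precision differed between genes, and the 95% confidence interval of the log2 fold change stayed within 1 unit either way for 23 of the 30. Simulated counts with the means and depths of these libraries give a guide to the reach of the test: of 66 genes given a 2-fold difference it found 27, and of 66 given a 1.5-fold difference 4. Genes varied independently in the simulation, without the tissue differences shared across genes in the real libraries, so the reach there can differ.

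**Figure D1:**
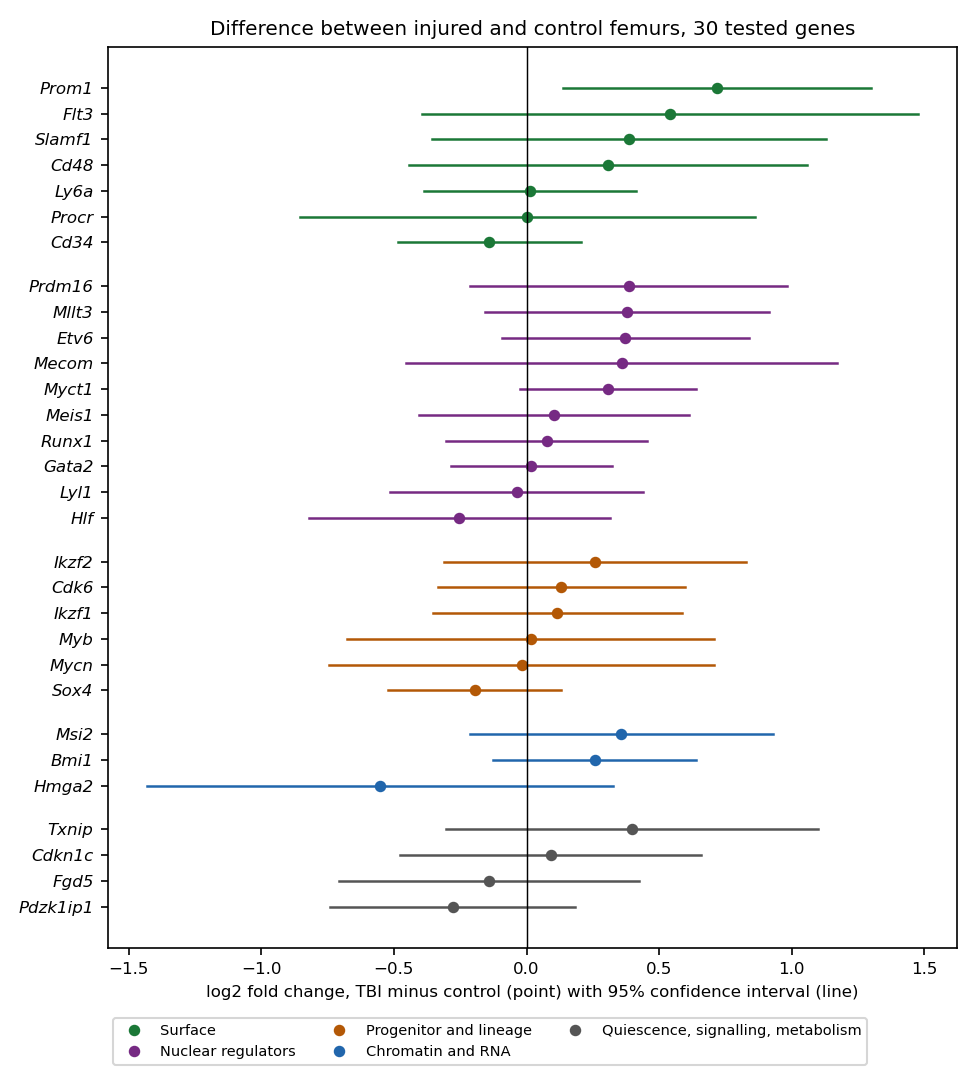
Log2 fold change (TBI minus control, edgeR) of the 30 tested genes on the horizontal axis, with a line for the 95% confidence interval and a colour for the role of the gene. The interval holds 0 for 29 of the 30 genes; that of Prom1 runs from 0.14 to 1.30.

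The genes spanned a wide range of levels. Divided further by exon length in kilobases (RPKM), control means ran from 0.158 for Hmga2 to 120.3 for Txnip. Lyl1 (47.5 RPKM), Ly6a (46.1 RPKM) and Pdzk1ip1 (44.2 RPKM) followed Txnip, at levels that differ by less than their spread between libraries. Further down were Procr at 3.62, Slamf1 at 2.92, Hlf at 2.89, Flt3 at 1.19 and Mecom at 0.419 RPKM, and each of these was read in every library. The homeobox gene Nkx2-3 was read 3, 1 and 1 times in the controls and 3, 2, 1 and 0 times after TBI, at or under the detection limit throughout, and was not tested.

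Promoter windows of 4 genes are shown because their highest libraries differed. Slamf1 and Cd48, neighbours on chromosome 1, were highest in TBI 1, and Procr and Txnip in TBI 3. Each window is the 250 bases upstream of the RefSeq start site on the plus strand of GRCm38.p6, 5′ to 3′. The windows lie at chr1:171766882-171767131 (Slamf1), chr1:171681742-171681991 (Cd48), chr2:155750967-155751216 (Procr) and chr3:96557707-96557956 (Txnip). Capitals mark matches, on either strand, to 5 motifs chosen after the values were known. The letters TGATAA and, searched as an alternative form, AGATAA stand for the motif of GATA factors. TGTGGT stands for that of RUNX factors, and CGGAAG for that of ETS factors. CACGTG is the palindromic E-box bound by MYC-type factors. The letters CACGAG are a repeated core of the carbohydrate response element known from the Txnip promoter.
Slamf1: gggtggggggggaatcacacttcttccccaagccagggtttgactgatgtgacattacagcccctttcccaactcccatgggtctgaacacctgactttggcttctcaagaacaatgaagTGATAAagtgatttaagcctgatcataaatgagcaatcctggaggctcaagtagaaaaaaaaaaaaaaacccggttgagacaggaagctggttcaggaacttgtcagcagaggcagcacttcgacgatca
Cd48: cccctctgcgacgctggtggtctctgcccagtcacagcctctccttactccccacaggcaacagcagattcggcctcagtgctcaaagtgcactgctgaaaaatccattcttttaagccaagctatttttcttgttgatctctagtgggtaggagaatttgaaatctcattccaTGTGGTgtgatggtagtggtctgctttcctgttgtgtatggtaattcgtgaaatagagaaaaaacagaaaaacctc
Procr: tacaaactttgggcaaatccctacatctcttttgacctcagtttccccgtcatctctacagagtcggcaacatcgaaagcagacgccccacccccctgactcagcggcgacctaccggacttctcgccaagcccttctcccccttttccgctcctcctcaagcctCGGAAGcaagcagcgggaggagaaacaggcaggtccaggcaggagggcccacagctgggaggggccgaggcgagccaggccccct
Txnip: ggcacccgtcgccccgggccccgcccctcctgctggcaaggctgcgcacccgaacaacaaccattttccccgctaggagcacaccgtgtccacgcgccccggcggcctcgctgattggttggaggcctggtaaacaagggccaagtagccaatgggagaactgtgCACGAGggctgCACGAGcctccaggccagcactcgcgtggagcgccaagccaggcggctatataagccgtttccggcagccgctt
Slamf1 held 1 GATA match 130 bases upstream, Cd48 1 RUNX match 76 bases upstream, Procr 1 ETS match 85 bases upstream and Txnip 2 CACGAG matches, 85 and 74 bases upstream. Windows were found for 28 of the 31 genes (36 windows in all). Of these 36, GATA letters were in 8.33% against 16.6% of all 32851 windows, RUNX letters in 8.33% against 14%, ETS letters in 13.9% against 13.6%, CACGAG in 5.56% against 5.37% and CACGTG in 19.4% against 6.02%. Windows of a gene can overlap, and CACGTG was in 7 windows of 5 genes, Bmi1, Cdk6, Msi2, Pdzk1ip1 and Runx1. A match describes letters in a window and does not show binding.

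Surface molecules and receptors had the highest median of the roles, 0.31 over 7 genes, with 6 higher and 1 lower. Prom1, which encodes the membrane protein prominin (ENSMUSG00000029086, GRCm38 chromosome 5, 43993620 to 44102032, minus strand), had 11.4, 8.89 and 8.60 CPM in controls 1 to 3, while TBI 1 to 4 had 21.9, 15.6, 10.03 and 15.8 CPM. Of the TBI libraries, only TBI 3 overlapped the controls, lying below control 1. Control libraries averaged 9.62 ± 1.52 CPM (SD, n = 3), and those of injured mice 15.8 ± 4.87 CPM (SD, n = 4). Its log2 fold change was 0.72 ± 0.25 (SE), with an unadjusted p of 0.0210 and an adjusted p of 0.609 in edgeR. The unadjusted p was 0.0663 without control 2 and 0.0697 without control 3.

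Flt3, the receptor tyrosine kinase of multipotent and lymphoid progenitors, had 9.30, 6.56 and 6.10 CPM in controls and 18.6, 11.2, 4.93 and 7.75 CPM in TBI 1 to 4. TBI 1 and TBI 2 were above all controls and TBI 3 below them, which left a log2 fold change of 0.54 ± 0.41 (SE) with a 95% interval from −0.40 to 1.48 (0.13 without TBI 1). Cd48, an adhesion molecule of progenitors and most leukocytes, was ordered in much the same way, with 15.2, 12.9 and 12.6 CPM in controls and 25.1, 20.4, 8.73 and 12.6 CPM after TBI (0.31 ± 0.33). Its neighbour on chromosome 1, Slamf1, encodes the CD150 receptor that marks stem cells and megakaryocyte progenitors. Slamf1 had 25.7, 12.2 and 16.0 CPM in controls and 31.6, 29.3, 17.1 and 16.0 CPM after TBI (0.39 ± 0.33, and 0.74 without control 1). In these 3 genes TBI 1 and TBI 2 stood above every control, while TBI 3 and TBI 4 lay within or below the control range.

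Procr, the endothelial protein C receptor that marks long-term stem cells, showed the opposite order. It had 5.64, 7.31 and 9.07 CPM in controls and 3.82, 5.41, 12.2 and 8.06 CPM in TBI 1 to 4. TBI 1 and TBI 2 lay below all controls and TBI 3 above them, so that the log2 fold change was 0.00 ± 0.38 (SE) with a 95% interval from −0.86 to 0.86. For Procr, differences within that interval remain compatible with these values, and the interval is not a limit of detection. Ly6a, which encodes SCA-1, had 40.8, 63.8 and 61.9 CPM in controls and 57.7, 50.4, 65.0 and 50.8 CPM after TBI (0.01 ± 0.18). Cd34, a sialomucin of progenitors and vessels, had 60.7, 75.6 and 85.6 CPM in controls and 60.9, 61.7, 79.2 and 66.5 CPM after TBI (−0.14 ± 0.15). The groups overlapped for both, and their intervals were narrower, from −0.39 to 0.41 for Ly6a and from −0.49 to 0.20 for Cd34.

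**Figure D2:**
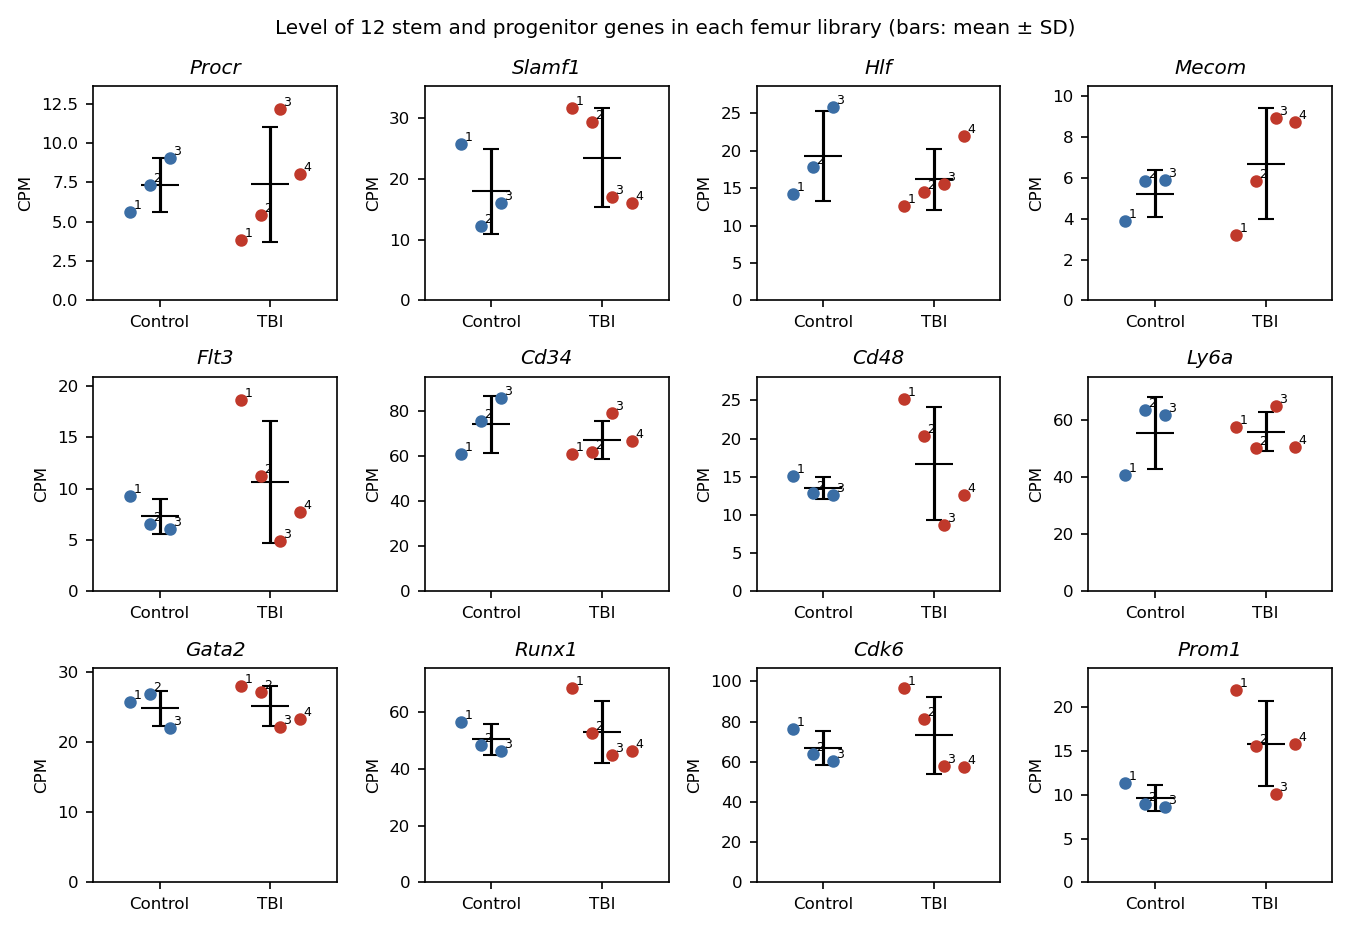
CPM (vertical axis, from 0) of 12 genes in each library, with controls in blue, TBI in red, replicate numbers beside the points, and bars for the mean ± SD. TBI 1 is the highest library for Flt3, Cd48, Slamf1, Gata2, Runx1, Cdk6 and Prom1 and the lowest for Procr, Mecom and Hlf.

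Among the nuclear regulators of stem cells, 8 of 10 tested genes had higher estimates and 2 lower, with a median of 0.20. Of all genes 54.4% were higher. In edgeR 0 of the 10 had an unadjusted p under 0.05, against 7.34% of all genes. Mecom, which encodes the stem cell factor EVI1, had 3.88, 5.86 and 5.89 CPM in controls and 3.21, 5.83, 8.95 and 8.75 CPM in TBI 1 to 4 (log2 fold change 0.36 ± 0.36, SE). TBI 3 and TBI 4 were above every other library and TBI 1 below. Hlf, a bZIP factor largely restricted to stem cells within the blood system, had 14.2, 17.8 and 25.9 CPM in controls and 12.6, 14.5, 15.6 and 22.0 CPM after TBI. Its estimate was −0.25 ± 0.25 and came to 0.02 without control 3.

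Gata2, the zinc finger factor required for stem cell maintenance, had the narrowest interval of the 30. Its levels were 25.8, 26.9 and 22.1 CPM in controls and 28.1, 27.2, 22.2 and 23.4 CPM after TBI, a log2 fold change of 0.02 ± 0.13 (SE) with a 95% interval from −0.29 to 0.32. Runx1, needed for stem cells to arise in the embryo, had 56.7, 48.3 and 46.2 CPM in controls and 68.6, 52.5, 45.0 and 46.3 CPM after TBI (0.08 ± 0.17). Both groups covered nearly the same range for Gata2, and TBI 1 alone stood above the controls for Runx1. The ETS family repressor Etv6 was at 0.37 ± 0.20, the PR domain factor Prdm16 at 0.39 ± 0.26, the chromatin reader Mllt3 at 0.38 ± 0.23 and Myct1 at 0.31 ± 0.15. Meis1, a cofactor of HOX proteins, was at 0.10 ± 0.22, and Lyl1, a helix-loop-helix factor, at −0.04 ± 0.21.

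Regulators of dividing progenitors and lineage choice gave a median of 0.07 over 6 genes, with 4 higher and 2 lower. Cdk6, the cyclin-dependent kinase that lets stem cells leave quiescence, had 76.1, 64.0 and 60.2 CPM in controls and 96.6, 81.1, 57.7 and 57.2 CPM in TBI 1 to 4 (0.13 ± 0.20, SE). TBI 1 and TBI 2 exceeded all controls and TBI 3 and TBI 4 fell short of all of them. Ikzf1, which encodes Ikaros, the zinc finger factor of lymphoid commitment, was at 0.12 ± 0.21, and its relative Ikzf2 at 0.26 ± 0.25. Myb, a factor of proliferating progenitors, was at 0.02 ± 0.30, Mycn at −0.02 ± 0.32 and Sox4 at −0.20 ± 0.14.

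The remaining genes regulate self-renewal through chromatin and RNA (median 0.26 over 3 genes, 2 higher and 1 lower) or quiescence, signalling and metabolism (median −0.03 over 4 genes, 2 higher and 2 lower). Txnip, which encodes an inhibitor of thioredoxin and of glucose uptake, had 253.5, 371.6 and 501.8 CPM in controls and 408.9, 328.7, 703.5 and 536.0 CPM in TBI 1 to 4. TBI 3 and TBI 4 were its highest libraries and control 1 its lowest, with a log2 fold change of 0.40 ± 0.31 (SE). The RNA-binding protein gene Msi2 was at 0.36 ± 0.25 and the Polycomb gene Bmi1 at 0.26 ± 0.17. Hmga2, a chromatin protein gene of fetal stem cells, had the largest negative estimate, −0.55 ± 0.39. It rested on 11 to 29 counts a library, or 0.812, 0.883 and 1.51 CPM in controls against 0.999, 0.468, 0.651 and 0.790 CPM after TBI. Control 3 was its highest library, and the estimate was −0.22 without it. The cyclin-dependent kinase inhibitor gene Cdkn1c was at 0.09 ± 0.25, Fgd5, an exchange factor for small GTPases, at −0.14 ± 0.25 and Pdzk1ip1, a small membrane protein gene, at −0.28 ± 0.20.

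The genes varied between libraries of the same group in an ordered way, which was noticed after their values had been seen. A model with the group and the mean log2 CPM of the 9 muscle genes was fitted to all 17144 genes in edgeR, and the slope on the muscle list mean was tested. At an adjusted p of 0.05, 19 of the 30 genes had a called slope, 9 positive and 10 negative. Among all genes 24% were called, 14.2% positive and 9.88% negative. The negative slopes were those of Flt3 (−0.55 ± 0.11 log2 units per log2 unit of the list mean, SE), Slamf1, Cd48, Lyl1, Cdk6, Pdzk1ip1, Ikzf1, Etv6, Meis1 and Runx1 (−0.21 ± 0.05). The positive slopes were those of Procr (0.53 ± 0.12), Mecom (0.50 ± 0.11), Txnip, Msi2, Cdkn1c, Hlf, Fgd5, Mllt3 and Bmi1 (0.20 ± 0.06). The edgeR adjusted p-values of the 19 ran from 0.00174 for Cdk6 to 0.0450 for Meis1.

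**Figure D3:**
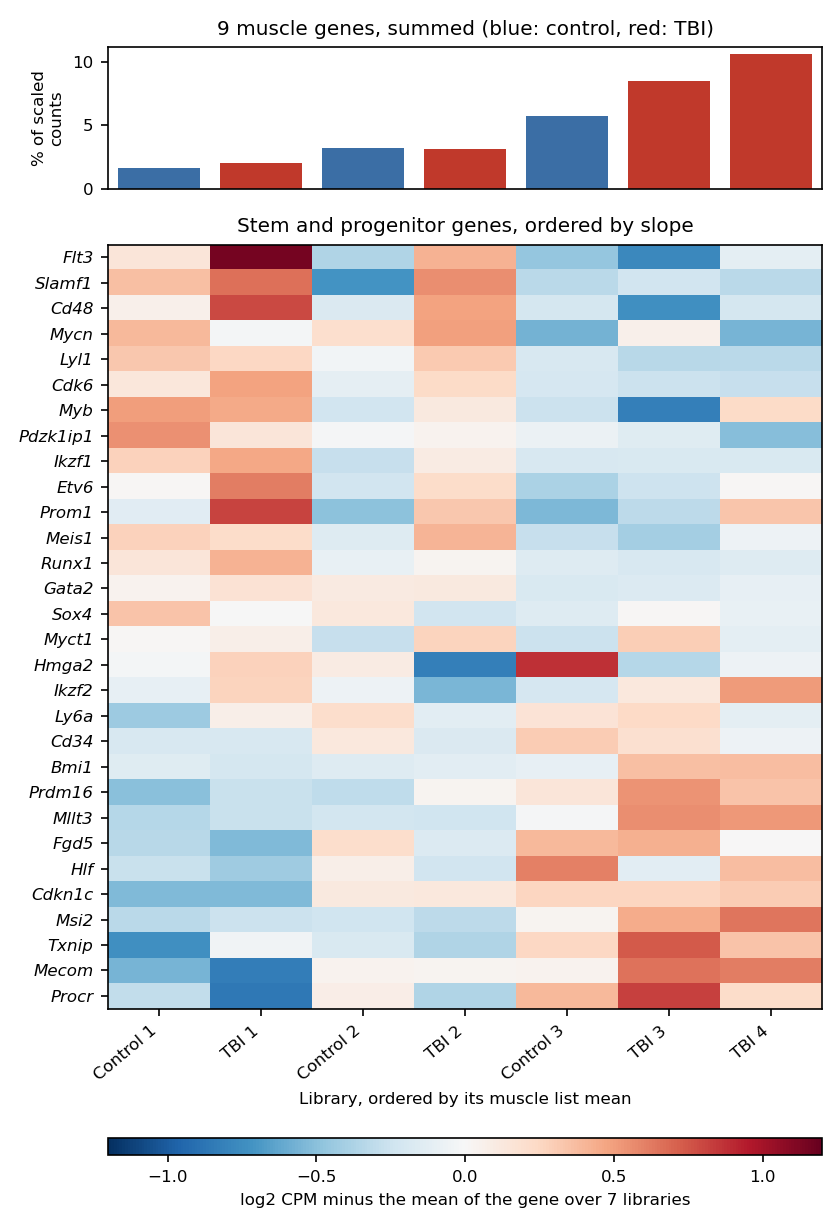
Log2 CPM of the 30 tested genes (rows, ordered by slope) in the 7 libraries (columns, ordered by muscle list mean), each minus the mean of the gene, below the summed share of the 9 muscle genes (controls blue, TBI red). Rows at the top, led by Flt3, are mostly above their mean in control 1, TBI 1 and TBI 2 and below it in control 3 and TBI 3. Rows at the bottom, led by Procr and Mecom, are mostly the reverse, with exceptions such as TBI 2 for Mecom and TBI 3 for Hlf.

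Msi2 shows this order without regard to the group. The controls had 78.0, 82.5 and 99.9 CPM and TBI 1 to 4 had 81.7, 78.4, 132.6 and 152.4 CPM, so that the libraries with the most muscle RNA, control 3, TBI 4 and TBI 3, were also the highest for Msi2. Its slope was 0.35 ± 0.06 (SE; edgeR adjusted p = 0.00279). All 19 slopes kept their sign when any 1 library was left out, and 14 were called without control 1 (5 positive, 9 negative; 16.1% of all genes). Without TBI 1 the number fell to 8 (10.1% of all genes): Hlf, Mllt3, Txnip and Msi2 positive, and Slamf1, Pdzk1ip1, Lyl1 and Cdk6 negative.

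The muscle list mean was not the only quantity that moved this way. In log2 CPM, the late neutrophil list averaged 7.77, 7.16 and 7.16 in the controls and 9.10, 8.33, 6.60 and 8.18 after TBI. The endothelial list averaged 5.29, 5.69 and 5.57 in the controls and 5.31, 5.49, 5.92 and 5.63 after TBI. Control 1 and TBI 1 were lowest for the endothelial list and for the muscle list. In fits with the late neutrophil list in place of the muscle list, 5 genes had a called slope (4.14% of all genes): Flt3, Cd48, Myb and Prom1 were positive and Procr negative. With the endothelial list 8 were called (6.37% of all genes), Procr and Fgd5 positive and Flt3, Slamf1, Cd48, Myb, Prom1 and Etv6 negative. The 3 lists ordered the libraries differently: TBI 4 was the highest for muscle, TBI 3 for the endothelial list and TBI 1 for late neutrophils.

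**Figure D4:**
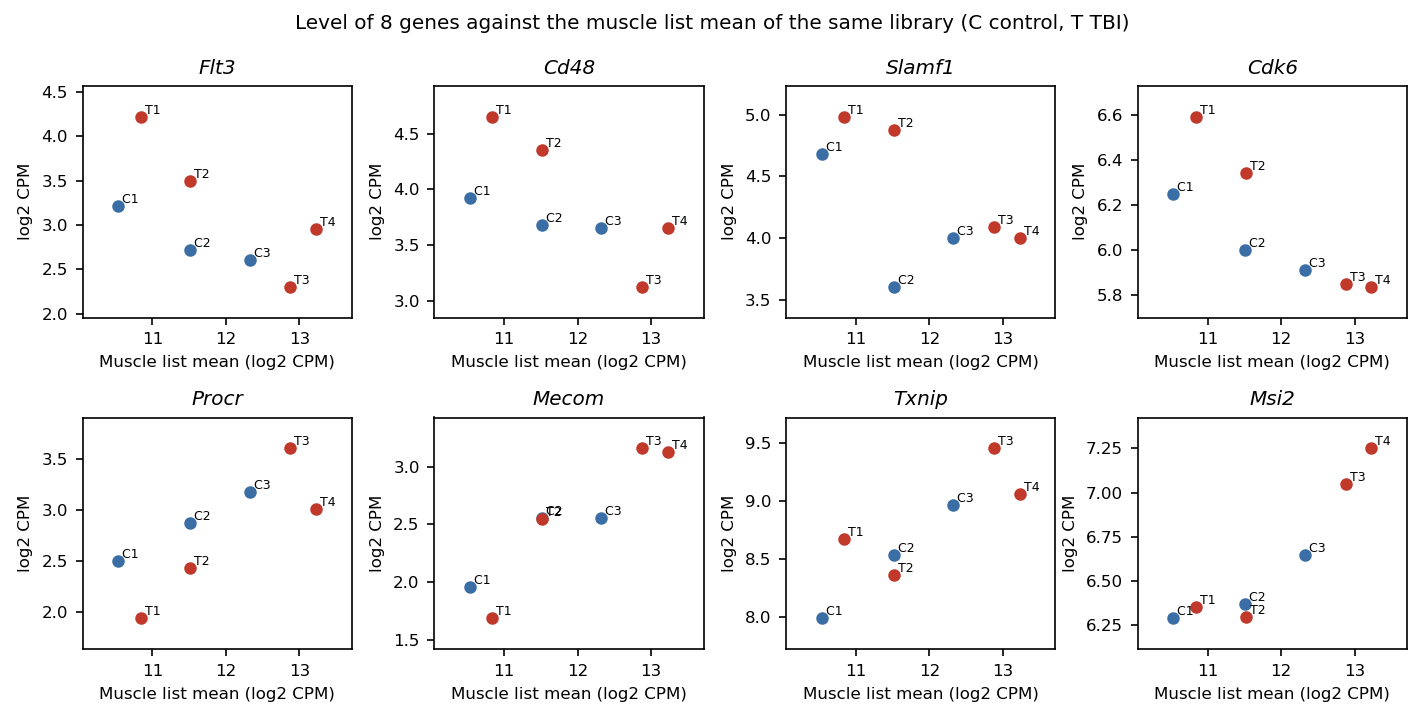
Log2 CPM of 8 genes (vertical axes) against the muscle list mean of the same library (horizontal axes, log2 CPM), with controls in blue and TBI in red. Flt3, Cd48, Slamf1 and Cdk6 are mostly lower and Procr, Mecom, Txnip and Msi2 mostly higher in the libraries with more muscle RNA.

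With the muscle list mean held as a covariate, 8 of the 30 genes were higher after TBI and 3 lower at an unadjusted p under 0.05, against 8.75% and 7.64% of all genes (16.4% in all), and 0 passed after adjustment. The higher ones were Prom1 (log2 fold change 0.87 ± 0.19, SE), Flt3 (0.80 ± 0.22), Slamf1 (0.64 ± 0.18), Etv6 (0.53 ± 0.12), Cd48 (0.50 ± 0.19), Myct1 (0.36 ± 0.14), Cdk6 (0.29 ± 0.09) and Ikzf1 (0.28 ± 0.11). The lower ones were Hlf (−0.46 ± 0.14), Fgd5 (−0.36 ± 0.15) and Cd34 (−0.24 ± 0.11). The smallest adjusted p in edgeR was 0.0662, for Prom1, whose adjusted p ran up to 0.987 under other alternatives. A fit without TBI 3 and TBI 4, which had the most muscle RNA, was chosen after seeing the data. At an unadjusted p under 0.05 in edgeR, 6 genes were higher there, against 6.81% of all genes. They were Flt3, Prom1, Slamf1, Cd48, Etv6 and Cdk6. Procr was lower (4.76% of all genes), and 0 passed after adjustment. TBI 1 and TBI 2 stood above every control for these 6 genes and below every control for Procr. The choice of libraries thus largely set this outcome, which lends no separate weight to the muscle fit. Another covariate gave another set of genes. With the late neutrophil list mean, Mecom (0.68 ± 0.28), Txnip (0.66 ± 0.26), Prdm16 (0.60 ± 0.23), Mllt3 (0.58 ± 0.19), Bmi1 (0.38 ± 0.15) and Prom1 (0.36 ± 0.14) were higher and Myb (−0.41 ± 0.16) lower at an unadjusted p under 0.05, against 13.1% of all genes. Of the genes named with the muscle covariate, Flt3, Cd48, Cdk6, Ikzf1 and Fgd5 changed sign, to −0.11, −0.20, −0.09, −0.08 and 0.12. Prom1, Slamf1, Etv6, Myct1, Hlf and Cd34 kept theirs. With the endothelial list mean, Prom1 (0.79 ± 0.14), Flt3 (0.60 ± 0.19), Slamf1 (0.54 ± 0.18) and Etv6 (0.43 ± 0.12) were higher and 0 lower, against 13% of all genes. In both of these fits 0 passed after adjustment in edgeR, and Prom1 was the gene named under all 3 covariates. The lists were themselves uneven between the groups. Estimates were higher after TBI for 9 of 9 muscle genes (median 0.78), 10 of 11 late neutrophil genes (0.99) and 7 of 9 endothelial genes (0.04). Holding such a list mean can remove or add a group difference, so these estimates are not injury effects freed of tissue makeup.

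Another list held further genes of stem and progenitor cells. Of 20 such genes, all tested, 12 had higher and 8 lower estimates (median 0.07), and 0 passed over all genes tested in edgeR. At an unadjusted p under 0.05 there were 3 (2 higher, 1 lower), against 7.34% of all genes, and for these 3 the groups did not overlap, against 8.04% of all genes. Erg, an ETS factor of stem cells and endothelium, had 15.2, 17.6 and 18.3 CPM in controls and 22.2, 22.0, 21.4 and 21.3 CPM in TBI 1 to 4 (0.35 ± 0.12, SE). All TBI libraries of Erg lay close together above the controls. Cebpa, the factor of myeloid commitment, had 23.3, 21.2 and 23.4 CPM in controls and 37.7, 24.7, 36.9 and 28.2 CPM after TBI (0.49 ± 0.17). Myc was lower in each TBI library than in each control, with 60.9, 54.2 and 51.9 CPM against 46.7, 48.7, 37.1 and 37.0 CPM (−0.39 ± 0.14). Their edgeR adjusted p-values were 0.587, 0.592 and 0.608. Kit, the stem cell factor receptor, had 41.5, 30.4 and 29.3 CPM in controls and 42.5, 35.2, 25.6 and 30.7 CPM after TBI (−0.01 ± 0.20).

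Niche genes of marrow stroma and vessels were listed as well. They include factors supplied to stem cells and also genes of the niche cells themselves, such as Lepr, Ebf3, Foxc1 and Nes. Of 15 niche genes, 5 had higher and 10 lower estimates (median −0.15), 0 passed over all genes tested in edgeR, and 3 had an unadjusted p under 0.05 (1 higher, 2 lower), against 2.37% higher and 4.97% lower of all genes. Angpt1, a ligand of the TIE2 receptor, was higher at 0.45 ± 0.18 (SE), with control 1 above TBI 3 and TBI 4. The heparin-binding cytokine gene Ptn (−0.80 ± 0.24) and Spp1, which encodes osteopontin (−0.54 ± 0.22), were lower. Their groups overlapped as well. Ptn had 21.92 CPM in TBI 4 against 21.75 CPM in control 1, and Spp1 835.9 CPM in TBI 1 against 749.5 CPM in control 3. Osteopontin is also made by osteoblasts, and the 8 osteoblast markers had a median of −0.74 with all 8 lower and summed to between 16150 and 27990 CPM in controls and between 10760 and 14930 CPM after TBI. Their part in the Spp1 value was not tested. Kitl, which encodes stem cell factor, had 39.0, 31.5 and 34.1 CPM in controls and 41.6, 36.1, 37.2 and 54.3 CPM after TBI (0.28 ± 0.17). Cxcl12, the chemokine that retains stem cells in the marrow, had 556.9, 357.2 and 395.5 CPM in controls and 618.8, 512.9, 323.1 and 421.1 CPM after TBI (0.10 ± 0.25). The groups overlapped for both.

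Proliferation genes overlapped between the groups, where 8.04% of all genes did not. Of 12 genes of DNA replication and mitosis, 4 had higher and 8 lower estimates (median −0.08), where 54.4% of all genes were higher. An unadjusted p under 0.05 in edgeR was found for 0 of the 12, against 7.34% of all genes. The smallest p in each direction belonged to Birc5 (−0.21 ± 0.14, SE) and Ccnb1 (0.05 ± 0.19). In whole marrow these transcripts come mostly from dividing erythroid, myeloid and B-cell precursors, not from stem cells.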

How the data were processed

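RNA of crushed whole femurs was purified on columns and made into stranded mRNA libraries, per the labels' protocols. The authors deposited raw read counts per Ensembl gene, 1 column per library. STAR, DESeq and GRCm38 are named in the submitters' processing notes. For the counting, tool, strand and treatment of multiple matches were not given in the sources used here. Overlapping genes and close relatives such as the Ly6 family are therefore uncertain. A deposited table of normalized values was not used.

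Symbols, exon lengths and coordinates came from GENCODE M21 (GRCm38), which matched 49412 of 49671 genes, and promoter sequences from RefSeq (GRCm38.p6). Counts were filtered with filterByExpr (17144 genes left), scaled by TMM and tested with edgeR 4.0.16 (quasi-likelihood F-test, R 4.3.3), with Benjamini-Hochberg adjustment over all genes tested and a threshold of 0.05. Each SE is the estimate divided by the root of its F statistic. Alternatives used DESeq2 1.42.0 and limma 3.58.1. The procedure was tested on simulated counts with 200 genes changed. Libraries of a group differed beyond sampling noise (chi-square per degree of freedom 27.2 or more).

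Members and lists were chosen with earlier results of these data known. All members are named. Values per library are given for those with an unadjusted p under 0.05 or separated groups, 12 set genes, and the 3 largest estimates. From the lists of further stem and progenitor, niche and proliferation genes, those with an unadjusted p under 0.05 and Kit, Kitl and Cxcl12 are named. Where such a list had none, the smallest p in each direction is named. Of the cell type marker lists, those of muscle, late neutrophils, endothelium and osteoblasts are summarised as a whole, without naming their genes. Lists of neutrophil precursors, B cells, T cells, erythroid cells and megakaryocytes were also computed and are not reported here. The same holds for lists of mast cells and basophils, monocytes, cartilage and adipocytes.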

Additional observations from a re-analysis of the deposited data

How the results depend on the processing

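The count of called stem and progenitor genes was 0 under every alternative run (in DESeq2 among the 29 with an adjusted p): DESeq2 and limma-voom, RLE and upper quartile scaling, looser and stricter filters, a replicate block, 3 covariates, any 1 library left out and, in the main fit only, an adjusted p of 0.1. The count over all genes was 0 in each of these except DESeq2, which called 102 (9 higher, 93 lower). The other fits were read at 0.05. At 0.1, the edgeR fit with the muscle covariate would call Prom1 (adjusted p 0.0662) and Etv6 (0.0676). The fit with the endothelial covariate would call Prom1 (0.076). The median log2 fold change of the 30 genes, 0.11, was 0.068 with upper quartile factors, 0.15, 0.17 and 0.038 with the muscle, endothelial and late neutrophil list means as covariates, 0.037 without TBI 3 and TBI 4 (chosen after seeing the data), and 0.049 to 0.21 with 1 library left out. Why these medians moved was not tested. Over 17 or 18 alternatives per gene, 10 of the 30 estimates kept their sign in all and 20 did not. The number of called slopes on the muscle list mean, also computed after seeing the data, ran from 4 to 9 (positive) and from 4 to 12 (negative) with 1 library left out. Same-numbered control and TBI libraries had correlated deviations of 0.549, −0.028 and 0.322, so the numbers were not taken to pair the samples. With the replicate block the median was 0.12, 0 genes were called and 5 of the 30 had an unadjusted p under 0.05, against 11.1% of all genes in that fit. TBI 2 correlated best with control 1, not with its own number. In the simulated counts, at this depth and replicate number, differences of 2-fold or less were mostly beyond the test.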
